A study of Homo sapiens with 12 samples.

Results

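Gene expression was compared between TYK-nu cells kept in DMSO, the solvent control, for 72 h and for 24 h, with 3 libraries at each time. A gene was a member of the comparison if it had at least 10 exon counts in at least 3 of these 6 libraries, which kept 10305 of the 17508 genes in the table. Of the kept genes, 81 had under 10 exon counts in every 24 h library and 8 in every 72 h library, so these passed only through the time at which they were high. TYK-nu is labelled as a high-grade serous ovarian cancer line, and the series also holds 3 libraries at 24 h and 3 at 72 h of cells given 15 µM cisplatin. Poly(A)+ RNA was sequenced from every sample, and each library has a count of fragments on the exons and a count on the introns of each gene. Both DMSO groups carried the solvent and no drug, and no library from before the DMSO was added was analysed here, so time in culture and time in DMSO cannot be told apart.

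Cells that grow in a dish change their surroundings as they divide: they use up nutrients and growth factors, release metabolites and cytokines into the medium, and come into contact with each other. Known answers to these conditions include a lower rate of entry into the cell cycle, the integrated stress response with its transcription factor ATF4, recycling through lysosomes, and the interferon response, in which secreted interferons switch on antiviral genes. None of these conditions was measured here, and their part in the changes below was not tested. Exon counts from poly(A)+ RNA mostly measure the mature mRNA, while intron counts mostly measure RNA that is not fully spliced, so the pair shows whether both kinds of RNA from a gene moved together.

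The 6 DMSO libraries held between 19940352 counts (24 h replicate 3) and 44713703 counts (72 h replicate 3) over exons and introns. The first principal component of exon levels carried 86.8% of the variance and separated the times. Introns took 6.49% ± 0.206 of all counts at 24 h and 6.81% ± 0.0441 at 72 h (SD, n = 3), a difference of 0.325 percentage points with no overlap between the times (p = 0.1 by an exact permutation test, two-sided, which cannot give less with groups of 3). The study's methods say that the cells were grown and treated in triplicate and give no passage or day for each replicate. How independent the 3 samples of a group were is therefore not known. The edgeR p-values below rest on a spread between replicates estimated over the 4 groups of 12 libraries, all of 1 line. The cell type markers went partly against the label. The keratin gene KRT18 (134 to 173 CPM as group means; CPM, exon counts scaled to a common library size) and MECOM (110 to 123 CPM) were expressed, KRT8 (13.1 and 32.4 CPM at 24 and 72 h), WT1 (3.19 and 1.91 CPM), KRT19 (2.00 and 1.96 CPM) and EPCAM (0.264 and 1.38 CPM) were detected at low levels, but CDH1, FOLR1 and SOX17 were at 0 counts in all 6 libraries, KRT7 at 8 counts or fewer, PAX8 at 2 or fewer and ESR1 at 1 or fewer. The endothelial genes PECAM1 (34067 to 70933 exon counts per library), CDH5 and KDR were high while VWF had at most 26 counts. PECAM1 fell from a mean of 2449 CPM at 24 h to 1389 CPM at 72 h and CDH5 from 1008 to 684 CPM, so 2 of these 4 markers moved with time, and their part in the results below was not tested. Leukocyte and fibroblast markers were at or near 0, with at most 37 counts for CD3E. The cells are therefore called here by the name of the line alone.

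Most genes shifted between the times, and most shifts were small. With edgeR's quasi-likelihood test and Benjamini-Hochberg adjustment, exon counts were higher at 72 h for 3383 genes (32.8% of those tested) and lower for 3373 (32.7%). Among these 6756 genes the median size of the change was 0.46 on the log2 scale, and 4276 of them changed by less than 1.5-fold. At least a 2-fold rise was found for 588 genes (5.71%) and at least a 2-fold fall for 292 (2.83%), and 106 genes rose and 27 fell at least 4-fold. Intron counts could be tested for 8885 genes. They were higher at 72 h for 1569 (17.7%) and lower for 1467 (16.5%), a split that depends on the scaling: with the exon library sizes it was 1214 and 1701, and without TMM factors 1072 and 2289. The genes that rose at least 2-fold had fewer counts per library (median 129) than those that fell at least 2-fold (median 851). Genes that passed the count rule only through 1 time (81 through 72 h, 8 through 24 h) were not removed from these counts. Gene lists are described below by how many of their tested members passed, beside these shares over all genes; the median change over all genes was 0.01 for exons and -0.01 for introns.

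**Figure D1:**
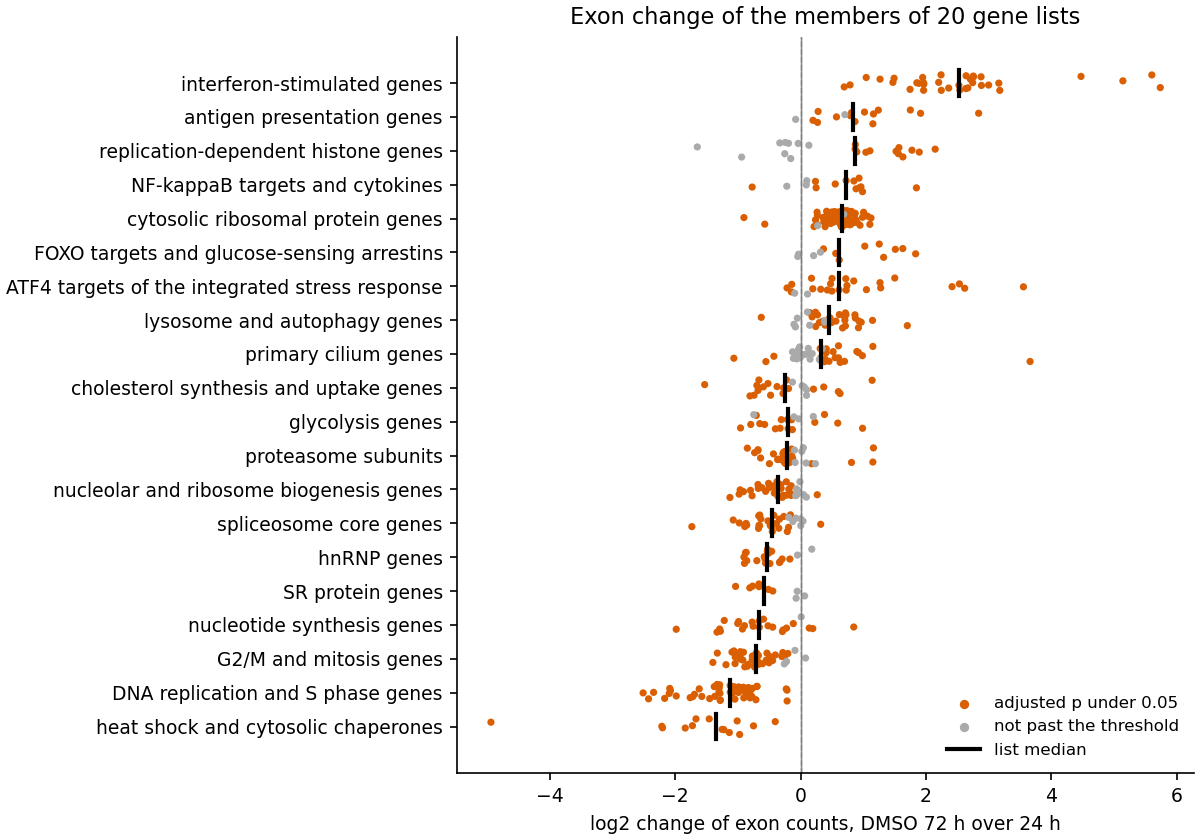
Each point is a member of a gene list, placed by its log2 change of exon counts between DMSO 72 h and 24 h (x axis), orange where the adjusted p was under 0.05 and grey otherwise. Black bars are list medians and the dashed line is the median of all 10305 genes; interferon-stimulated genes have the highest median (2.53) and heat shock genes the lowest (-1.35).

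The largest rise was in interferon-stimulated genes, which code for antiviral effectors, sensors of viral RNA and the factors that transcribe them. All 35 tested members of the 40 on the list rose, 33 of them at least 2-fold, against 32.8% and 5.71% of all genes, with a median log2 change of 2.53. Their summed exon level was 2258, 1750.4 and 1625 CPM at 24 h and 8772, 7173 and 7247 CPM at 72 h. All 3 libraries at 72 h lay above all 3 at 24 h, where replicate 1 was the highest. Of the 35, IFI27, MX2 and RSAD2 had under 10 counts in every 24 h library and passed the count rule only through the 72 h libraries. Of the other 32 members 32 rose, 30 at least 2-fold, with a median of 2.44. Intron counts rose for 27 of 27 members that could be tested, with a median of 2.55, beside 2.24 in exons for the same 27. Introns rose for 21 of 21 (median 2.31) without the 6 that had under 10 intron counts in every 24 h library.

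IFIT1 (chr10:89392546-89406487, + strand; GENCODE 44 on GRCh38, as for the positions of genes below), which binds viral RNA that lacks the host cap marks, stood at 46.6, 28.8 and 26.0 CPM at 24 h and 339, 289 and 296 CPM at 72 h, a log2 change of 3.18 ± 0.13 (SE; edgeR adjusted p = 1.27e-15). ISG15, a ubiquitin-like protein joined to other proteins during the response, was at 108, 72.1 and 55.8 CPM at 24 h and 837, 647 and 638 CPM at 72 h and rose by 3.16 ± 0.16 (edgeR adjusted p = 2.15e-14). Both genes were well separated between the times, and in both the 24 h libraries differed among themselves by more than the 72 h libraries did in proportion. IFI44L had the largest rise among genes with a mean of at least 200 exon counts, at 0.613, 0.0697 and 0.269 CPM at 24 h and 22.0, 13.0 and 15.9 CPM at 72 h, which is 5.74 ± 0.31 on the log2 scale (edgeR adjusted p = 1.29e-13). Its 24 h level rests on few counts, from 2 to 16 per library.

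Sensors and transcription factors on the list were among the genes that rose. The RNA sensor genes IFIH1 and RIGI rose by 3.00 ± 0.15 (log2 ± SE) and 2.54. The transcription factor IRF7 went from 28.0 ± 10.5 to 209 ± 35.0 CPM (SD, n = 3), a rise of 2.88 ± 0.15 (edgeR adjusted p = 4.5e-14). The smallest rises on the list were those of BST2 (0.70) and GBP2 (0.79). DHX58, a further RNA sensor (3.36 ± 0.16), the transcription factor gene BATF2 (2.82 ± 0.11) and the ADP-ribosyltransferase gene PARP10 (3.07 ± 0.17), which are not on the list, were also among the 8 largest rises of genes with a mean of at least 200 exon counts. In introns the largest rise among genes with a mean of at least 50 intron counts was that of IFI6, 3.91 ± 0.16 against 2.64 ± 0.14 in its exons.

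A promoter of this group is shown because an interferon response element is known to drive many of its genes. IFIT3 was the member with the lowest p among those with a RefSeq promoter, and it went from 33.7 ± 4.84 to 210.1 ± 25.2 CPM (SD, n = 3). The stretch holds 250 bases before and 50 after the RefSeq start (GRCh38.p14, chr10:89327747-89328046, + strand), written 5′ to 3′, and capitals mark matches to GAAANNGAA on either strand, a core of the interferon-stimulated response element.
IFIT3: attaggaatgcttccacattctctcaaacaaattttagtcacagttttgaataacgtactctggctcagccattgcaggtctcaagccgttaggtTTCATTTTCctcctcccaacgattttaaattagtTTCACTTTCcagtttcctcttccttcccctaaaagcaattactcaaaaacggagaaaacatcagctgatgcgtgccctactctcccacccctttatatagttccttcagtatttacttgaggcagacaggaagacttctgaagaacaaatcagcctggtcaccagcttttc
The matches begin 155 and 121 bases before the start. The same letters were found in 17 of the 26 promoters of interferon-stimulated genes in the table (65.4%), in 533 of 8406 promoters of kept genes (6.34%) and in 8.29% of all 27305 promoters. A match is a description of the sequence and not a shown binding site.

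Genes that present antigens to T cells rose as a group. Of 16 tested members 14 were higher and 0 lower, 7 of them at least 2-fold, with a median of 0.84. HLA-E was at 693, 683 and 643 CPM at 24 h and 1652, 1544 and 1577 CPM at 72 h, with no overlap and a rise of 1.24 ± 0.05 (edgeR adjusted p = 2.81e-16). The peptide transporter gene TAP1 rose by 1.91 ± 0.10 and the immunoproteasome gene PSMB8 by 1.16 ± 0.07. HLA-B, at 1.54 CPM at 24 h, rose by 2.84 ± 0.19, although the class I genes are close copies of each other and their counts can be shared. Of 15 tested NF-kappaB targets and cytokines, 11 were higher and 1 lower (median 0.73), or 10 and 1 of 14 (median 0.64) without TNFAIP2, which had under 10 counts in every 24 h library. RELB, a subunit of the non-canonical NF-kappaB factor, went from 20.4 ± 2.29 to 73.5 ± 8.32 CPM (SD, n = 3; 1.85 ± 0.10 on the log2 scale), and NFKB2 and IL1A rose by 0.89 ± 0.06 and 0.73 ± 0.05. CXCL1, a chemokine for neutrophils, fell by 0.77 ± 0.06.

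**Figure D2:**
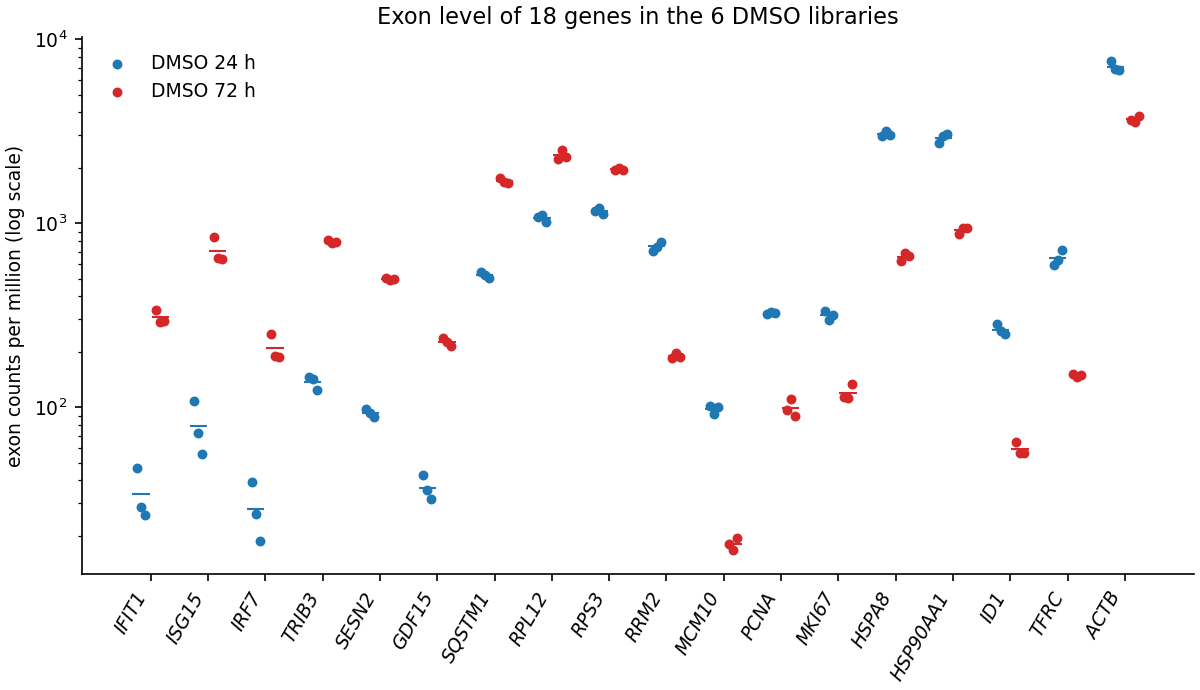
Exon level (CPM, log axis) of 18 genes in the 3 DMSO 24 h libraries (blue) and the 3 DMSO 72 h libraries (red); points are libraries in replicate order and lines are group means. For every gene shown, the 3 libraries of one time lie on one side of the 3 of the other.

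Genes of DNA replication and S phase fell together. All 50 tested members of the 52 on the list were lower at 72 h, 31 of them at least 2-fold, against 32.7% and 2.83% of all genes, with a median of -1.12. Their summed level was 8089, 8047 and 8059 CPM at 24 h and 3536, 3571 and 3566 CPM at 72 h, so the times did not overlap. Intron counts were lower for 44 of 49 members and higher for 1, with a median of -1.40. RRM2, the small subunit of ribonucleotide reductase, was at 709.5, 743 and 794 CPM at 24 h and 186, 196 and 187 CPM at 72 h and fell by 1.98 ± 0.05 on the log2 scale (SE; edgeR adjusted p = 5.02e-19). Its introns fell by 2.57 ± 0.22.

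Members of each step of replication were among them. MCM10 (chr10:13161558-13211110, + strand), which helps to start the replicative helicase, was at 101, 91.7 and 99.9 CPM at 24 h and 18.1, 16.8 and 19.5 CPM at 72 h and fell by 2.42 ± 0.07 (edgeR adjusted p = 6e-18). The helicase subunit gene MCM4 fell by 2.09 ± 0.06, and FEN1, the flap endonuclease that trims the ends of Okazaki fragments, fell by 1.69 ± 0.05. The sliding clamp gene PCNA was at 321, 329.9 and 325 CPM at 24 h and 96.6, 111 and 90.0 CPM at 72 h. UHRF1, which carries DNA methylation over to the new strand, had the largest fall of these, -2.51 ± 0.10, and CCNE2, a cyclin of S phase entry, changed by -2.34 ± 0.11. CLSPN, a mediator of the replication checkpoint, changed by -2.17 ± 0.10. The smallest falls were those of POLD2 (-0.21), RFC1 (-0.22) and RPA3 (-0.23). In bulk RNA, a smaller share of cells in S phase and less of these RNAs per cell cannot be told apart.

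The RRM2 promoter (GRCh38.p14, chr2:10122489-10122788, + strand) is shown with its CCAAT boxes in capitals. The E2F motif TTTNNCGC was to be marked for this list, but this stretch does not hold it.
RRM2: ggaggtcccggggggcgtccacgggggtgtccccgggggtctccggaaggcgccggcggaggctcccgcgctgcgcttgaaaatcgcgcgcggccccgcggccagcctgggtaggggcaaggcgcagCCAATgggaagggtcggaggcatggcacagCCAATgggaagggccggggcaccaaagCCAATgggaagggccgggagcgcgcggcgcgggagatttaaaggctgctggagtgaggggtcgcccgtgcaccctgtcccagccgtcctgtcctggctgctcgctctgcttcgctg
The boxes begin 123, 93 and 66 bases before the start. Over the list, CCAAT on either strand was found in 25 of 42 promoters (59.5%), against 37% of promoters of kept genes and 35.7% of all promoters. The E2F motif TTTNNCGC was found in 23 of 42 (54.8%), against 11.1% of kept genes and 6.9% of all, and not in the RRM2 stretch shown.

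Genes of G2 phase and mitosis also fell, by less. Of 45 tested, 41 were lower and 0 higher, 9 at least 2-fold, with a median of -0.71 in exons and -0.72 in introns, where 32 of 45 were lower, or 31 of 44 without SPC25, which had under 10 intron counts in every 72 h library. MKI67, a marker of cycling cells, was at 332, 298 and 315 CPM at 24 h and 113, 112 and 133 CPM at 72 h and fell by 1.40 ± 0.07 (edgeR adjusted p = 3.79e-14). ANLN, a scaffold of the cleavage furrow, fell by 1.33 ± 0.06, and the mitotic kinesin genes KIF20A and KIF4A changed by -1.04 ± 0.06 and -0.96 ± 0.05. The 4 members that did not pass were BIRC5, CKS1B, CDC25C and CDC25B, from -0.26 to 0.08. The cell cycle homology region TTTGAA was found in 28 of 39 promoters of the list (71.8%) and CCAAT in 31 (79.5%), against 9.54% and 37% of kept genes; over all promoters TTTGAA was found in 15.4%.

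Genes around these groups went in several directions. Of 24 nucleotide synthesis genes 20 were lower and 3 higher (median -0.66), among them RRM1 (-1.29 ± 0.05) and CTPS1 (-0.93 ± 0.05). Among 8 tested G1 cyclins, CDK inhibitors and RB family genes, 4 were lower, including CCND3 (-0.96 ± 0.12) and RBL1 (-1.03 ± 0.08), and 2 were higher, RBL2 (0.26) and CDKN1B (0.31), which codes for the CDK inhibitor p27. Replication-dependent histone genes moved the other way: of 21 tested, 12 were higher and 0 lower, with a median of 0.87. Without DMSO 24 h replicate 2 the split was 10 and 2, and without DMSO 24 h replicate 3 it was 11 and 1. H2BC12 went from 31.1 ± 3.57 to 57.2 ± 3.31 CPM (SD, n = 3) and H2AC25 from 12.6 ± 2.32 to 36.5 ± 3.88 CPM. Their mRNAs normally end in a stem-loop without a poly(A) tail and their coding regions are near copies, so the counts from poly(A)+ RNA cover only tailed forms and may be shared between copies.

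Heat shock and cytosolic chaperone genes were lower throughout. All 14 tested members of 15 fell, 11 at least 2-fold, with a median of -1.35 in exons and -1.07 in introns, where 9 of 11 were lower. Over the 11 members tested in introns the exon median was -1.22. HSPA8, the constitutive HSP70 that folds new proteins, was at 2976, 3155 and 3022 CPM at 24 h and 626, 687 and 664 CPM at 72 h. These levels do not overlap, and the fall of 2.21 ± 0.05 in exons (edgeR adjusted p = 2.59e-20) stood beside one of 2.26 ± 0.12 in introns. HSP90AA1, the inducible HSP90, was at 2737, 2987 and 3039 CPM at 24 h and 877, 938 and 945 CPM at 72 h, and HSP90AB1 and HSPH1 changed by -1.14 ± 0.04 and -1.46 ± 0.06. HSPA1A changed by -2.20 ± 0.11, but it is nearly identical to HSPA1B (-1.84), so the split of counts between them is uncertain. The small heat shock gene CRYAB, at 2.91 to 3.68 CPM at 24 h and 0.0380 to 0.159 CPM at 72 h, had under 10 counts in every 72 h library and passed the count rule only through the 24 h libraries. Without it 13 of 13 members fell, 10 at least 2-fold, with a median of -1.25. The smallest fall was that of HSPA4 (-0.40).

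The HSPA8 promoter (GRCh38.p14, chr11:123062087-123062386, - strand) is shown with matches to GAANNTTC, part of the element that heat shock factor binds, in capitals.
HSPA8: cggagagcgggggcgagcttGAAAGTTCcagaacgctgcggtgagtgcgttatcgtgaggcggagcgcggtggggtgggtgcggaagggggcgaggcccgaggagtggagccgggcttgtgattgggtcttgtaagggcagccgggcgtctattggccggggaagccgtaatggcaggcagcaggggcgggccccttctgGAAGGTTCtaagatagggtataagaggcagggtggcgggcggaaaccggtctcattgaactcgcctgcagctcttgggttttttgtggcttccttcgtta
They begin 230 and 50 bases before the start. These letters were in 4 of 13 promoters of the list (30.8%), in 4.26% of those of kept genes and in 6.87% of all.

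Targets of ATF4, the transcription factor of the integrated stress response, mostly rose. Of 25 tested, 20 were higher, 8 of them at least 2-fold, and 3 lower, with a median of 0.61 in exons. In introns 11 of 22 were higher and 2 lower, with a median of 0.47, beside 0.50 in exons for the same 22. The 2 became 1 without DMSO 24 h replicate 1, DMSO 72 h replicate 2 or DMSO 72 h replicate 3. They became 0 without DMSO 24 h replicate 3 or DMSO 72 h replicate 1. TRIB3 (chr20:362835-397559, + strand), a pseudokinase that feeds back on ATF4, was at 146, 142 and 124 CPM at 24 h and 812, 784 and 787 CPM at 72 h and rose by 2.53 ± 0.06 (edgeR adjusted p = 2.59e-20). SESN2 (chr1:28259518-28282491, + strand), a leucine sensor that restrains the growth kinase mTORC1, was at 97.7, 93.2 and 88.4 CPM at 24 h and 501, 491 and 499.6 CPM at 72 h and rose by 2.42 ± 0.05 (edgeR adjusted p = 2.59e-20). GDF15, a secreted stress cytokine, was at 42.5, 35.6 and 31.7 CPM at 24 h and 236, 227 and 214 CPM at 72 h. In all 3 genes the exon and intron changes were close, with introns at 2.57 ± 0.16, 2.31 ± 0.16 and 2.58 ± 0.25. PPP1R15A, the phosphatase subunit that ends the response, rose by 1.50 ± 0.05, and NUPR1 had the largest rise (3.55). ATF4 itself rose by 0.50 ± 0.05.

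The rise was not shared by every function on that list. The amino acid transporter genes SLC7A5 (-0.21), SLC7A1 (-0.15) and SLC38A2 (-0.14) were the 3 lower members, of which 2 did not pass without TMM factors, without DMSO 24 h replicate 3 or without DMSO 72 h replicate 2. PHGDH and PSAT1, enzymes of serine synthesis, rose by 0.43 ± 0.04 and 0.18 ± 0.05, and ASNS, asparagine synthetase, rose by 0.73 ± 0.05. Of 20 aminoacyl-tRNA synthetase genes, a separate list, 7 were higher and 7 lower (35.0% each), near the 32.8% and 32.7% of all genes. They were led by SARS1 (1.05 ± 0.05) and AARS1 (0.55 ± 0.04) upward and HARS1 (-0.65 ± 0.05) downward. Chaperones of the endoplasmic reticulum, also a separate list, went the other way, with 10 of 18 lower (55.6%) and 5 higher (27.8%). CALR fell by 0.88 ± 0.04, PDIA4 changed by -0.64 ± 0.05 and MANF by -0.75 ± 0.06, while HERPUD1 rose by 0.57 ± 0.05. The ATF4 composite motif TGATGNAA was in 3 of 20 promoters of ATF4 targets, against 1.61% of kept genes and 3.67% of all.

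Genes of lysosomes and autophagy rose in 28 of 36 cases and fell in 1, GLA, with a median of 0.46 in exons and 0.47 in introns. SQSTM1 (chr5:179806398-179838078, + strand), the autophagy receptor p62, was at 546, 523 and 502 CPM at 24 h and 1772, 1686 and 1659 CPM at 72 h, with a rise of 1.70 ± 0.05 (edgeR adjusted p = 6.06e-18). NEU1 and HEXA, enzymes that trim sugars in the lysosome, rose by 1.15 ± 0.07 and 0.87 ± 0.06, and GABARAPL1, of the autophagosome membrane, by 0.97 ± 0.06. Targets of FOXO factors, which act when insulin signalling is low, and glucose-sensing arrestins, counted as 1 list, rose in 9 of 13 cases with 0 lower (median 0.62). KLHL24 went from 14.6 ± 1.71 to 44.9 ± 1.73 CPM (SD, n = 3), and CITED2, YPEL5 and CCNG2 rose by 1.33 ± 0.06, 1.26 ± 0.07 and 1.02 ± 0.10. TXNIP, whose RNA is known to follow glucose, changed by -0.04 ± 0.05 (edgeR adjusted p = 0.458). Of the hypoxia response genes 9 of 16 were higher and 4 lower, with DDIT4, an inhibitor of mTORC1, at 1.47 ± 0.06 and ANGPTL4 at 1.21 ± 0.10.

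Cytosolic ribosomal protein genes rose in exons far more than in introns. Of 77 tested members 73 were higher and 2 lower in exons, with a median of 0.66, although only 4 rose at least 2-fold. In introns 28 were higher and 11 lower, with a median of 0.09. That intron split depends on the scaling: it was 22 and 14 with the exon library sizes, and 19 and 21, with a median of -0.07, without TMM factors. It also moved with single libraries, with a median of 0.06 without DMSO 24 h replicate 1, 0.04 without DMSO 72 h replicate 1, 0.02 without DMSO 72 h replicate 2 and 0.16 without DMSO 72 h replicate 3. Their summed exon level was 67899, 69861 and 64767 CPM at 24 h and 104237, 114385 and 104004 CPM at 72 h. The 3 libraries at 72 h all lay above those at 24 h.

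RPL12, of the stalk base of the large subunit, was at 1087, 1114 and 1022 CPM at 24 h and 2228, 2503 and 2290.5 CPM at 72 h in exons, a rise of 1.12 ± 0.06 (edgeR adjusted p = 7.78e-14), and at 308, 269 and 281 CPM at 24 h and 449, 376 and 402 CPM at 72 h in introns (0.51 ± 0.10; CPM of intron counts). RPL26 rose by 1.11 ± 0.06 in exons, while its introns were at 462, 525 and 525 CPM at 24 h and 507, 518 and 468 CPM at 72 h, a change of -0.02 ± 0.09 (edgeR adjusted p = 0.889). RPL13A rose by 0.86 ± 0.05 in exons and fell by 0.35 ± 0.11 in introns. The exon and intron values of RPL26 and RPL13A thus did not move together. RPS26 (-0.90) and RPS10 (-0.57) were the 2 lower members, of which 1 passed without DMSO 24 h replicate 1 or without DMSO 72 h replicate 1, and RPL36A (0.27) and RPS16 (0.69) did not pass. Ribosomal protein genes have many near-identical processed pseudogenes, so some of their fragments may have been assigned elsewhere.

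The exon/intron ratio was tested in one model with both kinds of counts. It was higher at 72 h for 778 of 8885 genes (8.76%) and lower for 326 (3.67%), with a median change of 0.10 on the log2 scale over all genes; with separate TMM sizes for exons and introns the split was 666 and 546 and the median 0.03. Of the ribosomal protein genes 50 of 77 were higher and 2 lower (median 0.61), and with the separate sizes 46 and 3 (median 0.53). RPL13A had a ratio change of 1.28 ± 0.12 (edgeR adjusted p = 5.03e-08) and RPL26 one of 1.20 ± 0.11 (edgeR adjusted p = 5.03e-08). The counts over all genes moved with single libraries: they were 707 higher and 207 lower without DMSO 24 h replicate 2, 439 and 289 without DMSO 24 h replicate 3, 500 and 251 without DMSO 72 h replicate 1, and 503 and 209 without DMSO 72 h replicate 2.

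Most cytosolic ribosomal protein mRNAs are known to begin with a run of pyrimidines, the TOP motif through which mTORC1 controls their translation. The RPL12 stretch is shown for it, with the first 5 transcribed bases in capitals (GRCh38.p14, chr9:127451357-127451656, - strand).
RPL12: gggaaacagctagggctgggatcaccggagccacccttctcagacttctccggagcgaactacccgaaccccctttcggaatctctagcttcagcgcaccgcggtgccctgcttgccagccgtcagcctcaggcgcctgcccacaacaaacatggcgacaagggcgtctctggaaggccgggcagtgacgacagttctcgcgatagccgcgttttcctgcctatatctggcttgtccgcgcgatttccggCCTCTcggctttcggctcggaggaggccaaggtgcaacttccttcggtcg
All 5 first bases were C or T in 42 of 61 promoters of the list (68.9%), in 5.92% of those of kept genes and in 5.22% of all.

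**Figure D3:**
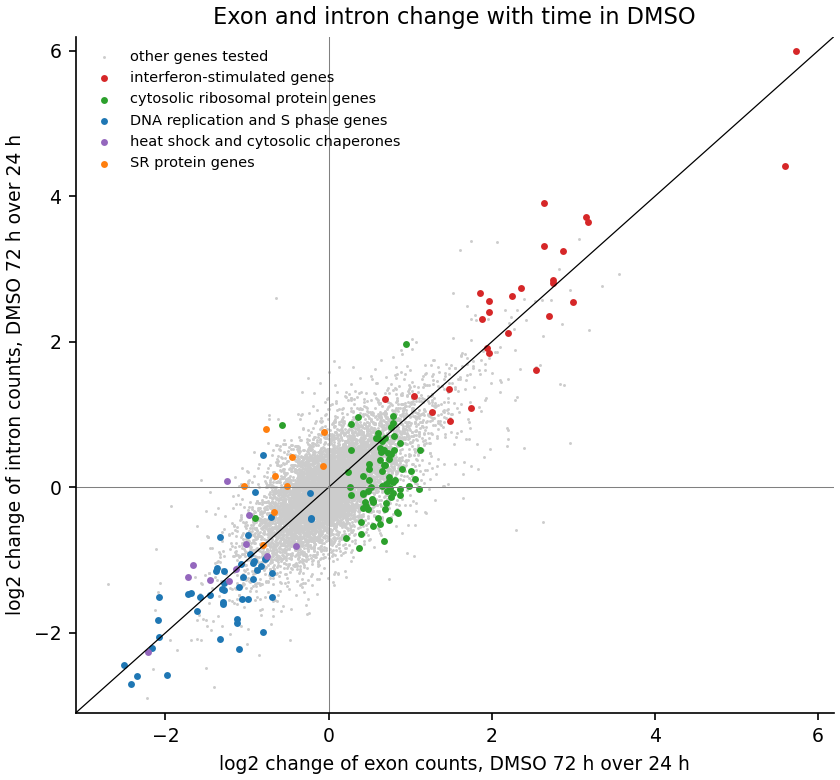
Each point is one of the genes tested for both counts, with its log2 change of exon counts (x axis) and of intron counts (y axis) between DMSO 72 h and 24 h; the black line marks equal changes. Interferon-stimulated (red) and DNA replication genes (blue) lie along the line, while ribosomal protein genes (green) lie right of it, with a median of 0.66 in exons and 0.09 in introns.

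Genes of the splicing machinery fell in exons. Of 20 hnRNP genes 18 were lower and 0 higher (median -0.53), of 31 core spliceosome genes 24 were lower and 1 higher (median -0.45), and of 10 SR protein genes 7 were lower and 0 higher (median -0.59). In introns 9 of 17 hnRNP genes were lower and 2 higher (median -0.40), 10 of 29 core spliceosome genes were lower and 1 higher (median -0.31; 16 lower without TMM factors), and of 9 SR protein genes 2 were lower and 4 higher (median 0.15, which became -0.002 without TMM factors, with 3 higher and 2 lower). Over the 9 SR genes tested in introns the exon median was -0.66. SR proteins bind exons and recruit the spliceosome, and several of them limit their own mRNA through unproductive splicing. SRSF7 was at 311, 329 and 337 CPM at 24 h and 156, 166 and 155 CPM at 72 h in exons (-1.04 ± 0.05; edgeR adjusted p = 1.44e-14) and at 402, 514 and 450.3 CPM at 24 h and 491, 485 and 417 CPM at 72 h in introns, a change of 0.02 ± 0.09. SRSF3 fell by 0.76 ± 0.06 in exons and rose by 0.81 ± 0.10 in introns, and its ratio change of -1.49 ± 0.11 was the largest fall of the ratio among genes with a mean of at least 50 intron counts (edgeR adjusted p = 7.7e-10). The ratio was lower for 6 of 9 SR genes and higher for 0 (median -0.73), and for 8 of 9 with separate TMM sizes. The next falls of the ratio in this set were those of HMGB1, a chromatin protein (-1.48 ± 0.14), and PPM1L (-1.47 ± 0.28).

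The largest rises of the ratio in the same set were those of IL4I1 (3.19 ± 0.22), MICOS10-NBL1 (2.95 ± 0.35) and ZFAND2A (1.94 ± 0.18). The locus of IL4I1 overlaps NUP62 on its own strand, and MICOS10-NBL1 is a read-through of MICOS10 and NBL1, so the intron counts of both may come from the neighbours. Among core spliceosome genes, SF3B3 fell by 1.07 ± 0.05 and SNRPF fell by 0.98 ± 0.05, and among hnRNP genes HNRNPA2B1 was at 1854, 1829.5 and 1943 CPM at 24 h and 935, 1031 and 1045 CPM at 72 h. Nucleolar and ribosome biogenesis genes fell as well, with 32 of 40 lower and 1 higher (median -0.36), in contrast to the ribosomal protein genes. NOLC1 fell by 1.13 ± 0.05 and nucleolin, NCL, fell by 0.80 ± 0.05.

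**Figure D4:**
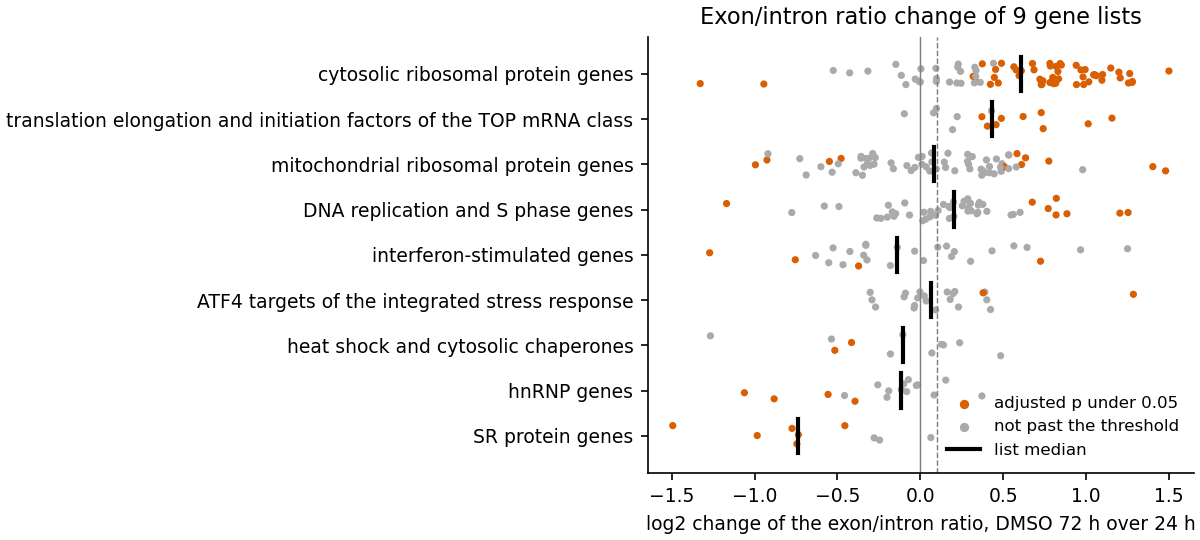
Log2 change of the exon/intron ratio between DMSO 72 h and 24 h (x axis) for the members of 9 gene lists, orange where the adjusted p was under 0.05; black bars are list medians, the solid line is 0 and the dashed line the median of all genes tested. Ribosomal protein genes have a median of 0.61 and SR protein genes one of -0.73.

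TGF-beta and BMP targets were mixed, with 6 of 14 higher, such as LTBP2 (1.04 ± 0.06), and 6 lower. ID1, an inhibitor of differentiation that BMP signals switch on, was at 282, 259 and 249 CPM at 24 h and 64.9, 56.5 and 56.5 CPM at 72 h and fell by 2.15 ± 0.07 in exons (edgeR adjusted p = 6.06e-18), and its introns fell by 2.49 ± 0.20. ID3 fell by 1.94 ± 0.06, ID2 changed by -1.96, and SMAD6, an inhibitor of the pathway, fell by 2.74 ± 0.11 in introns. Immediate early genes were higher for 8 of 13 and lower for 3: EGR1 rose by 1.26 ± 0.06 and JUN by 0.77 ± 0.05, while DUSP2 fell by 2.07 ± 0.14; without DMSO 24 h replicate 1 or DMSO 72 h replicate 3, 1 was lower. Of 13 YAP/TEAD targets 8 were lower and 2 higher, with ANKRD1 at -1.26 ± 0.06 and AXL at 0.92 ± 0.07. Actin and SRF target genes were lower for 14 of 21 and higher for 3 (median -0.50), and ACTB was at 7604, 6930.1 and 6776 CPM at 24 h and 3649.8, 3533 and 3833 CPM at 72 h. None of 3 Wnt targets passed in edgeR's test, with ZNRF3 at -0.26 ± 0.13 (edgeR adjusted p = 0.0923).

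Metabolic genes fell in part. Of 20 glycolysis genes 12 were lower and 4 higher (median -0.20); LDHA was at 184, 185 and 189.9 CPM at 24 h and 88.9, 101 and 97.7 CPM at 72 h and PGK1 changed by -0.79 ± 0.05. Of 24 cholesterol synthesis and uptake genes 14 were lower and 5 higher (median -0.25), and the regulator SREBF2 rose by 0.63 ± 0.06. FASN, fatty acid synthase, fell by 1.28 ± 0.08 and SCD, the desaturase, rose by 0.52 ± 0.06. Of 69 nuclear genes of oxidative phosphorylation 19 were higher (27.5%) and 27 lower (39.1%), beside 32.8% and 32.7% of all genes. The 19 became 12 without DMSO 72 h replicate 2. Proteasome subunit genes were lower for 25 of 35 and higher for 4 (median -0.22). HMOX1, which breaks down haem, rose by 1.25 ± 0.06, while GCLM and GSR of glutathione metabolism changed by -0.77 ± 0.06 and -0.78 ± 0.06. The p53 targets were 5 higher and 3 lower of 17 (29.4% and 17.6%), both below the shares over all genes. The largest rise was that of SESN2, which is also on the ATF4 list. Of 41 primary cilium genes 22 were higher and 3 lower (median 0.32; 21 of 40 without KIF17, which had under 10 counts in every 24 h library), among them IFT27 (0.99 ± 0.10) and IFT140 (1.15 ± 0.12).

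Over the 8885 genes tested for both counts, exon and intron changes had a Pearson correlation of 0.734, a description across genes of the same 6 libraries. Both were higher for 1222 genes and both lower for 1109. Exon and intron counts passed in opposite directions for 66 genes with higher exons and 72 with lower exons, 3524 passed in exons only and 567 in introns only, where introns carry fewer counts. SLCO4A1, a transporter of organic anions, had the largest fall in introns among genes with a mean of at least 50 intron counts (-2.90 ± 0.16) and was also among the 8 largest falls in exons of genes with a mean of at least 200 exon counts (-2.23 ± 0.09). Among genes with a mean of at least 200 exon counts MAP1A had the largest fall in exons, from 15.7 ± 1.87 to 2.40 ± 0.494 CPM (SD, n = 3; -2.66 ± 0.14; edgeR adjusted p = 7.36e-14).

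The same 72 h against 24 h comparison in cisplatin was set beside these values, to ask whether the time changes differed between the conditions. In the cisplatin libraries 3326 of the 10305 genes were higher at 72 h and 3268 lower, and 5746 genes passed in both conditions with the same direction, against 2 with opposite directions. These 5746 are 85.1% of the genes called in DMSO and 87.1% of those called in cisplatin. The changes correlated across genes with r = 0.921 (Pearson; a description, no library being shared). The test of the difference itself, cisplatin time change minus DMSO time change, called 0 of 10305 genes (0.0%), with a smallest edgeR adjusted p of 0.45; 962 genes were under an unadjusted p of 0.05, and DESeq2 also called 0 with 973 under 0.05. The median SE of a difference was 0.109, and 10217 genes had an estimated difference under 1 on the log2 scale.

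For interferon-stimulated genes, 35 of 35 were higher with time in cisplatin, with a median of 2.52 beside 2.53 in DMSO. IFIT1 rose by 3.00 ± 0.13 in cisplatin beside 3.18 ± 0.13 in DMSO, a difference of -0.18 ± 0.18. All 50 replication genes were lower in cisplatin too, with a median of -1.055 beside -1.121, and RRM2 changed by -1.82 ± 0.05, a difference of 0.16 ± 0.07. All 14 chaperone genes were lower, with HSPA8 at -2.12 ± 0.05, a difference of 0.09 ± 0.07. Ribosomal protein genes were higher for 73 of 77 with a median of 0.50 beside 0.66, and RPL12 differed by -0.14 ± 0.08. For TRIB3 the difference was -0.03 ± 0.08 and for SRSF7 -0.12 ± 0.07. None of these differences passed edgeR's test, which does not show that the changes were equal.

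**Figure D5:**
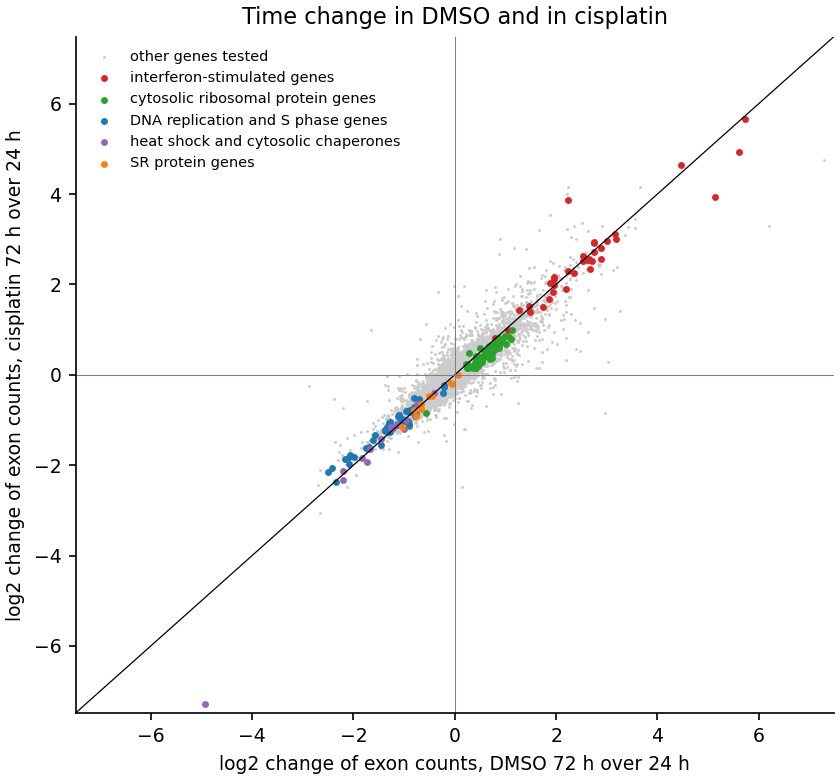
Log2 change of exon counts between 72 h and 24 h in DMSO (x axis) and in cisplatin (y axis) for the 10305 genes; the black line marks equal changes. The 5 coloured lists lie near the line, and 0 genes passed the test of the difference.

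Several named genes share their locus with a gene on the other strand, and the strand option of the counting is not given in the sources used here. These are IFIT1 and IFIT3 (with LIPA), HSP90AA1 (with WDR20), SQSTM1 (with MGAT4B and another gene), SLCO4A1 (with SLCO4A1-AS1), KRT18 (with KRT8), GLA (with RPL36A), RSAD2, TAP1, PSMB8, PARP10, CCNE2, ANLN, KIF20A, KIF4A, SPC25, CDC25C, CDKN1B, RBL2, AARS1, HARS1, HNRNPA2B1, SNRPF, PGK1, CRYAB, IFT140, IL4I1, and, among genes described at the end, CGAS, EEF1D, EIF2AK2, FTH1, HSF1, TUBB2B and TUBB4B. NR1H3, also described at the end, shares its locus with ACP2 on the other strand. Reads of such pairs cannot be told apart if the counting ignored strand. C3, FEN1, GBP2, HARS1, PGK1, RPL36A and RPS10 overlap another gene on their own strand, so their counts are uncertain.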

How the data were processed

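Poly(A)+ RNA of TYK-nu cells was sequenced from 12 libraries, 3 each of DMSO and of 15 µM cisplatin at 24 and 72 h. The authors trimmed reads with Trim Galore 0.6.0, aligned them to GRCh38 with HISAT2 2.1.0 and counted fragments with HTSeq-count on the exons (intersection-strict mode) and introns (union mode) of Ensembl 98 genes; the HTSeq version and strand option are not given in the sources used here. The deposited values are raw whole-number counts per gene and library. Genes with at least 10 exon counts in at least 3 of the 6 DMSO libraries were kept, and those that also had this in introns were tested for introns and the ratio. edgeR 4.0.16 in R 4.3.3 (glmQLFit and glmQLFTest, TMM, the 4 groups of 12 libraries in 1 fit, Benjamini-Hochberg adjusted p under 0.05) was the test; for the exon/intron ratio each library had its own term and its total of both counts as library size. CPM used TMM library sizes of each kind of count. Each edgeR SE is the size of the log2 change divided by the square root of the F statistic of its test. DESeq2 1.42.0, other scalings and filters, a logistic regression, the replicate number as a block, and each library left out in turn were alternatives, and the edgeR tests were tested on simulated data. The intron share was compared with Python 3.11.15 and scipy 1.17.1.

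The members and the gene lists were chosen with earlier results of these data known. The 8 largest exon, 4 largest intron and 3 largest ratio changes in each direction (mean of at least 200 exon or 50 intron counts, no overlap between times) and up to 4 members of lowest p per list were named by rule, except that some of these genes are not reported here; other genes, 6 further lists, the 2-fold criterion and the motifs GAAANNGAA, GAANNTTC and the pyrimidine start were chosen after their values were seen. Promoters are from RefSeq (GRCh38.p14), the first entry per gene, for 8406 kept genes; those shown belong to the 4 lists with the largest share called in one direction, among lists of at least 10 tested genes without the 6 further lists. Symbols and positions are from GENCODE 44 on GRCh38. Intervals of counting error were not used, since the reads carry no molecular identifiers.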

Additional observations from a re-analysis of the deposited data

How the results depend on the processing

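Exon calls varied little: between 6326 and 6852 genes passed over all alternatives, including 6731 with DESeq2, and no result reversed. Of the genes named from the exon test, C3 (1.42 ± 0.53, at a mean of 9.67 counts) lost its call without DMSO 24 h replicate 2 or DMSO 72 h replicate 1, NR1H3 (0.51 ± 0.18) without DMSO 24 h replicate 2 or 3, and WT1 (-0.78 ± 0.22) without DMSO 24 h replicate 2, while ZNRF3 gained one (-0.37 ± 0.14) without DMSO 24 h replicate 3. C3 had under 10 counts in every 24 h library and passed the count rule only through the 72 h libraries. Without TMM factors, 1072 genes were higher and 2289 lower in introns, and the median over all genes moved to -0.17; the cause was not tested. The exon/intron ratio depended most on the test. The binomial logistic regression, which leaves out the spread between replicates, called 3277 genes (2190 higher and 1087 lower) against 1104 with edgeR, and separate TMM sizes gave 546 lower. With a library left out, the ratio calls ranged from 712 to 914, with 439 to 707 higher and 207 to 289 lower; the arm with 2 libraries shared the spread of all groups. Without DMSO 72 h replicate 3 the difference between cisplatin and DMSO had 1 call, IGF1R (0.68 ± 0.11, edgeR adjusted p = 0.0461), named after its value was seen, and 0 without any other DMSO library. The replicate numbers are not said to mark a shared batch, and same-numbered libraries had correlations of deviations of 0.141, 0.126 and 0.017, so the numbers were not taken as pairs; with the replicate block 6699 exon, 2993 intron, 973 ratio and 0 difference calls were found. The intron and ratio tests rest on between 1330084 and 3065534 intron counts per library, and the effect of depth was not tested.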

Other observations

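Lists that were added after values had been seen gave further patterns. All 15 genes of a list of translation factors and other proteins, such as TPT1, whose mRNAs are known to carry the TOP motif were higher in exons (median 0.55), and the exon/intron ratio was higher for 9 and lower for 0. EEF2, which moves the ribosome along the mRNA, had an exon change of 0.74 ± 0.06 and an intron change of -0.18 ± 0.11 (log2 ± SE). EEF1D rose by 0.46 ± 0.07 in exons while its introns fell by 0.62 ± 0.09. TPT1 rose in both, by 0.95 ± 0.06 and 1.11 ± 0.08.

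Upstream genes of the interferon response were mixed. The DNA sensor gene CGAS fell by 0.72 ± 0.11 and MAVS, the adaptor of the RNA sensors, fell by 0.33 ± 0.06, while TLR3, a sensor of double-stranded RNA, rose by 1.16 ± 0.12 and STING1 by 0.37 ± 0.05. Of 14 tested ligands, sensors and receptors of the 25 listed, 5 were higher and 5 lower (35.7% each). These shares are near those over all genes (32.8% and 32.7%). The other members that did not pass the count rule were not tested.

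Tubulin genes were lower for 10 of 11 and higher for 0 (median -0.99), or 9 of 10 without TUBB2B, which had under 10 counts in every 72 h library. TUBA1B was at 2533, 2595 and 2355 CPM at 24 h and 1019, 1027 and 1050.4 CPM at 72 h. Its introns changed by -0.39 ± 0.17 (edgeR adjusted p = 0.0714), and the ratio was lower for 4 tubulin genes, with TUBB4B at -0.97 ± 0.14. Several tubulin genes are near copies, so their counts may be shared.

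Iron genes moved in both directions. TFRC, the transferrin receptor that brings iron in, was at 593, 631 and 712 CPM at 24 h and 152, 147 and 149 CPM at 72 h (-2.11 ± 0.07), and its exon/intron ratio changed by -1.19 ± 0.19 (edgeR adjusted p = 8.86e-05). The ferritin subunit genes FTL and FTH1, which store iron, rose by 0.89 ± 0.05 and 0.38 ± 0.05 in exons, and the FTH1 ratio changed by -1.04 ± 0.21. Among keratin genes KRT15 and KRT8 rose by 1.50 ± 0.07 and 1.29 ± 0.09, and KRT18 fell by 0.37 ± 0.05.

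The stress kinase gene EIF2AK2, which is also induced by interferon, rose by 0.85 ± 0.07, whereas EIF2AK3 and EIF2AK4, the kinases for misfolded protein and for amino acid lack, changed by -0.27 ± 0.10 and -0.20 ± 0.05. The heat shock factor genes HSF1 and HSF2 changed by 0.08 ± 0.06 and 0.02 ± 0.11 (edgeR adjusted p = 0.248 and 0.882).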
